A study of Rattus norvegicus with 24 samples.

Results

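Myh1, Myh2 and Myh4 encode the myosin heavy chains of the fast fibre types of adult rat hindlimb muscle, and their transcripts were followed across 24 microarrays of the soleus, a postural calf muscle made mostly of slow fibres. Every probe that the authors' annotated table assigns to one of the 3 genes was taken, which gave 4 of 30367 probes on the array for 3 of 19999 named genes: 1 for Myh1, 2 for Myh2 and 1 for Myh4. The rats were female, about 14 weeks old, and fell into 3 groups of 8. SED rats lived for 8 weeks with ordinary cage activity. TR rats had free access to a running wheel for 8 weeks. DETR rats had the wheel for 4 weeks and were then sedentary for 4 weeks. Rats of all 3 groups, SED included, were made to run on a wheel for 1 h at 20 m/min, and the soleus was taken 24 h later, so no group was free of recent exercise. RNA came from a piece of the mid-belly of the muscle, and the labels give neither a strain nor the distance each rat ran.

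Myosin heavy chain is the motor protein of the thick filament, and the isoform a fibre carries sets much of how quickly it contracts. Myh7 encodes the slow type I chain, Myh2 the fast type IIa chain of oxidative fibres, Myh1 the type IIx chain and Myh4 the type IIb chain of the quickest, most glycolytic fibres. Rat soleus is known as a slow muscle with a minority of type IIa fibres and little type IIx or IIb. A fibre can carry more than 1 chain, and running training is known to move fast fibres in the direction from IIb through IIx to IIa.

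Groups were spread unevenly over the 3 slides of 8 arrays each. Of the DETR rats 6 were on slide 1, beside 2 SED rats, and 2 on slide 3. Of the TR rats 4 were on slide 2, beside 4 SED rats, and 4 on slide 3, where the last 2 SED rats also were. Slide 3 was dim: the 75th percentile of processed signal was 95.48 to 338.8 on its arrays and 562.3 to 1493 on the others. All levels below are log2 signals relative to that percentile of the same array. They compare arrays for 1 probe, and do not rank one probe above another. The 7 slow fibre genes used to check the tissue were bright on average in every rat. Their mean level was 7.85 to 8.45 on slides 1 and 2 and 8.81 to 9.28 on slide 3. Among the 7 genes Myh7 was at 7.92 to 10.32, while slow troponin C (Tnnc1) reached down to 3.35 (3.35 to 9.62). In RNA from a whole piece of muscle, fewer fast fibres and less fast transcript per fibre cannot be told apart.

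In the RefSeq table for rat assembly GRCr8 the 3 genes are neighbours on chromosome 10, in the order Myh2, Myh1 and Myh4, with Myh3 before them and Myh8 and Myh13 after. A long non-coding gene, LOC102555216, stands between Myh1 and Myh4. RefSeq promoters were found for 3 of 3 members. The stretches from 220 bases upstream up to the start site are printed because the 3 genes stood low on the same arrays, with the longest run of letters that all 3 share in capitals. All are on the plus strand of GRCr8: Myh2 at chr10:52355519-52355738, Myh1 at chr10:52384692-52384911 and Myh4 at chr10:52421928-52422147.
Myh2: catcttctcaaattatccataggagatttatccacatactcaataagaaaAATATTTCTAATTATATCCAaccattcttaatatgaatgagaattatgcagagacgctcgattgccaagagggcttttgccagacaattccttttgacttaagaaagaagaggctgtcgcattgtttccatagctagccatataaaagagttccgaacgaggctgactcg
Myh1: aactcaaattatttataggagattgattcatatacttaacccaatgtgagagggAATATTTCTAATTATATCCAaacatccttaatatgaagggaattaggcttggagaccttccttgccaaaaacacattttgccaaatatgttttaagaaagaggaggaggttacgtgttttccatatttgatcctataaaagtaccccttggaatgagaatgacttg
Myh4: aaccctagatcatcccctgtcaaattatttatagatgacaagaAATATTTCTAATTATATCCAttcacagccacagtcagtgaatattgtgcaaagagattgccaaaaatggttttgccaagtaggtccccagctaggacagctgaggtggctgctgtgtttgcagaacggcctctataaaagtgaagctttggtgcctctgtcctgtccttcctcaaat

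The shared run is 20 bases long, and its first base lies 170 bases upstream of the start in Myh2, 166 in Myh1 and 177 in Myh4. On either strand it occurs in 5 of 33469 rat promoter windows of 300 bases (250 before the start and 50 after it), or 0.0149%. Those windows are the 3 members' own and 2 of LOC102555216, which is on the minus strand and whose windows overlap that of Myh4 by 295 and 281 bases. The word TATAAAAG stands 30, 33 and 45 bases upstream of the start of Myh2, Myh1 and Myh4, and 1.69% of all windows hold it on either strand. The 9-base run TCAAATTAT (in 0.248% of windows) and the 8-base run TTTTGCCA (0.938%) are also common to the 3 genes. In a global alignment of the 300-base windows Myh2 and Myh1 were identical at 66.4% of columns, Myh1 and Myh4 at 56.2% and Myh2 and Myh4 at 54.2%, against 49.6%, 50.1% and 46.9% for Myh3 with Myh2, Myh1 and Myh4. The E-box letters CANNTG, searched on both strands, were in the Myh4 window 3 times and absent from the Myh2 and Myh1 windows, while 72.1% of all windows hold at least 1. The MEF2 site letters were in the Myh1 and Myh4 windows once each and absent from that of Myh2 (1.87% of all windows), and the CArG box was in the Myh4 window alone of the 3 (1.64%). Such letter matches are a description of the windows.

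Myh2, the type IIa chain, had either a high or a very low signal, with nothing between. On the probe A_64_P109919 the lowest, median and highest levels were -1.5, 5.51 and 7.20 in the 8 SED rats, 4.96, 5.79 and 6.83 in the 8 DETR rats, and -2.12, 2.72 and 7.03 in the 8 TR rats. The TR rats were split: TR 3, 6, 7 and 8 were at 6.55, 7.03, 5.34 and 5.25, and TR 1, 2, 4 and 5 at 0.19, -2.12, -0.36 and -0.65. SED 3, at -1.5, was the SED rat that lay with the low TR rats, and the remaining 7 SED rats were at 5.08 or above. The group ranges therefore overlapped, and the median of the TR rats fell in the empty stretch between the levels.

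The second Myh2 probe, A_64_P105383, put the same rats on each side. Its lowest, median and highest levels were -3.67, 3.45 and 3.89 in SED, 0.72, 3.29 and 4.66 in DETR, and -4.81, -0.22 and 4.46 in TR. Group means on A_64_P109919 were 4.99 ± 2.72 in SED, 5.90 ± 0.73 in DETR and 2.65 ± 3.72 in TR, and on A_64_P105383 they were 2.49 ± 2.52, 3.26 ± 1.26 and -0.29 ± 3.45 (SD, n = 8). The SD of the DETR group, which had no rat on the low side, was the smallest of the 3 on both probes.

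**Figure D1:**
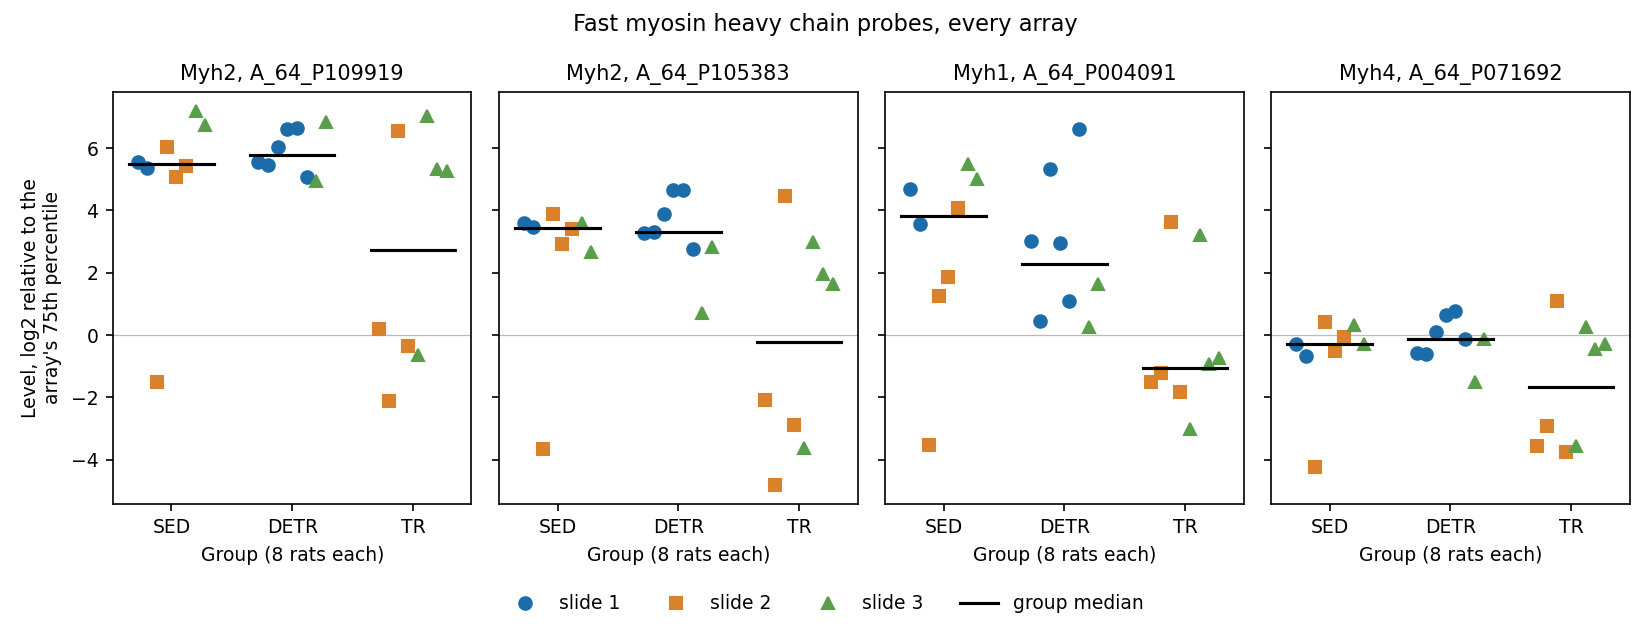
Level of each fast heavy chain probe on every array, as log2 signal relative to the 75th percentile of that array (vertical axis), for the 8 SED, 8 DETR and 8 TR rats; symbols and colours give the slide and black lines the group medians. On both Myh2 probes SED 3 and 4 TR rats lie apart from the other 19 arrays, and Myh1 is spread out in every group.

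Over the 24 arrays the widest step between neighbouring values of A_64_P109919 was 4.77 log2 units, a 27.3-fold change in signal, and the next widest was 0.85. Below it lay 5 arrays, SED 3 and TR 1, 2, 4 and 5, at -2.12 to 0.19, and above it 19 arrays at 4.96 to 7.20. By group the low arrays were 1 of 8 SED, 0 of 8 DETR and 4 of 8 TR, and by slide they were 0 on slide 1, 4 on slide 2 and 1 on slide 3. Slide 2 held no DETR array and slide 1 no TR array, so outside slide 3 the DETR and TR counts cannot be told apart from slide. The widest step of A_64_P105383 was 2.80, between -2.08 and 0.72, and that of Myh4 was 1.40, between -2.91 and -1.51, and each set apart the same 5 arrays. With quantile normalization, and in the authors' deposited table, the widest steps of these 3 probes also set apart the same 5 arrays. With normexp background correction they did so for both Myh2 probes, while for Myh4 the step of 1.07 set apart SED 3, TR 1 and TR 4 only.

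In signal strength the 5 arrays overlapped the other 19. Their 75th percentile of signal ran from 133.2 to 1438, against 95.48 to 1493 on the other 19 arrays, and 50.3 to 79.68% of probes were well above background on them, against 47.91 to 85.42%. Within slide 2, TR 2 was the dimmest at 562.3, where the other arrays of that slide had 1150 to 1493. TR 2 was the noisiest array. Its replicate spots of the same probe varied by a median of 24.41% (SD over mean), where the 19 arrays had 4.511 to 10.73%. TR 5, at 12.7%, was also above all 19, while SED 3, TR 1 and TR 4 had 4.644, 4.772 and 5.121%. The part of signal strength and of this noise in the low values was not tested. On TR 5, a dim array, the Myh4 probe and A_64_P105383 were not well above background; on the other 23 arrays they were, as were A_64_P109919 and Myh1 on all 24.

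**Figure D2:**
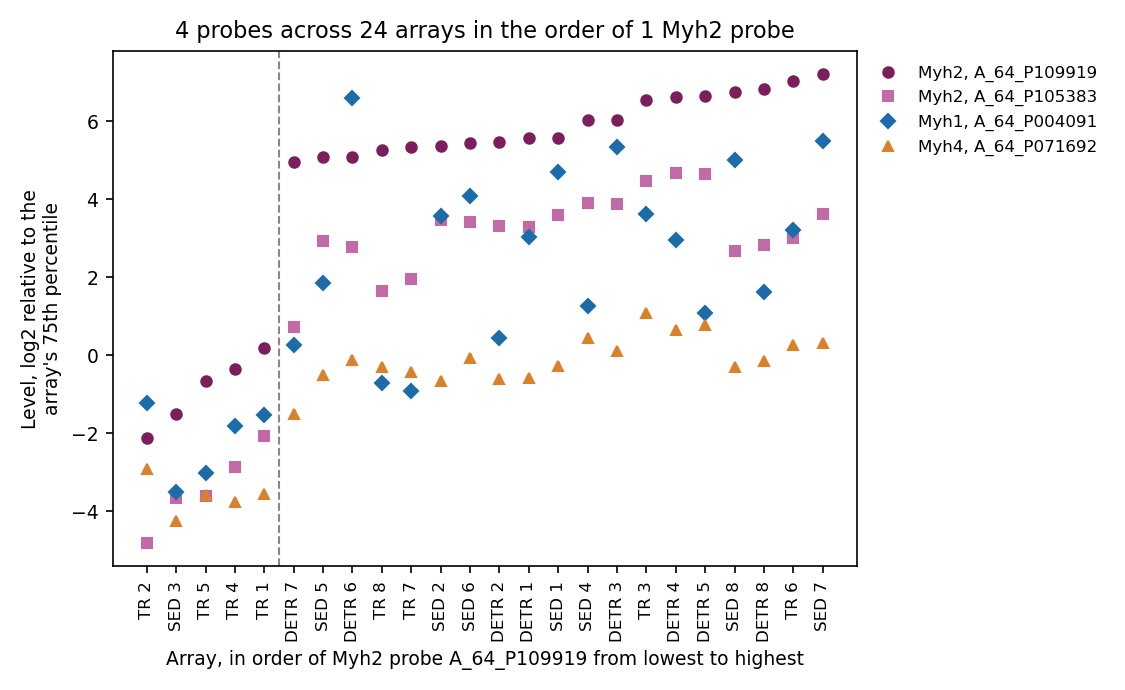
The 24 arrays in the order of Myh2 probe A_64_P109919 (horizontal axis) with the log2 level of all 4 probes relative to the 75th percentile of the array (vertical axis); the dashed line marks the widest step of A_64_P109919. Both Myh2 probes and Myh4 step up together after the first 5 arrays, by 4.77, 2.80 and 1.40 log2 units at the least, while Myh1 runs from -0.92 to 6.60 on the 19 arrays to the right.

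Myh1, the type IIx chain, had its lowest values in the same 5 rats and no such step above them. Its lowest, median and highest levels were -3.51, 3.82 and 5.50 in SED, 0.25, 2.29 and 6.60 in DETR, and -3.01, -1.07 and 3.63 in TR, with means of 2.80 ± 2.95, 2.66 ± 2.31 and -0.29 ± 2.40 (SD, n = 8). In the TR group only TR 3 and TR 6, at 3.63 and 3.21, were above 0, and the remaining 6 were between -3.01 and -0.72. The SED rats other than SED 3 were between 1.25 and 5.50, and all 8 DETR rats were between 0.25 and 6.60. The 5 arrays low for Myh2 were the 5 lowest for Myh1 as well, at -3.51 to -1.22, but the sixth and seventh, TR 7 and TR 8 at -0.92 and -0.72, came next, with TR 7 only 0.30 above the fifth. The widest step of Myh1, 1.20, set apart SED 3 and TR 5 only.

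On the 19 arrays with high Myh2 signal, Myh1 covered 7.52 log2 units, A_64_P109919 2.24, A_64_P105383 3.95 and Myh4 2.60. The rats at the ends of the Myh1 order did not differ much in Myh2: TR 7 had Myh1 at -0.92 and A_64_P109919 at 5.34, and DETR 6 had Myh1 at 6.60 and A_64_P109919 at 5.08. DETR 6 was also the array with the highest level of Actn3, the alpha-actinin of fast fibre Z-discs, at 3.65, where the other 7 DETR rats were at or below 0.63. Across the 19 arrays Myh1 correlated with A_64_P109919 at r = 0.28 (Spearman rho = 0.33) and with Myh4 at r = 0.27 (rho = 0.32). Myh4 correlated with A_64_P109919 at r = 0.68 (rho = 0.65) and with A_64_P105383 at r = 0.79 (rho = 0.70). Taken within slides, the Myh1 pairs were at r = 0.38 and 0.25 and the Myh4 pairs at 0.83 and 0.88. These are descriptions of 19 arrays that share 3 slides. Over all 24 arrays r was 0.74 to 0.76 for Myh1 with the other 3 probes and 0.95 to 0.96 among those 3, values that include the step between the 5 and the 19 arrays.

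**Figure D3:**
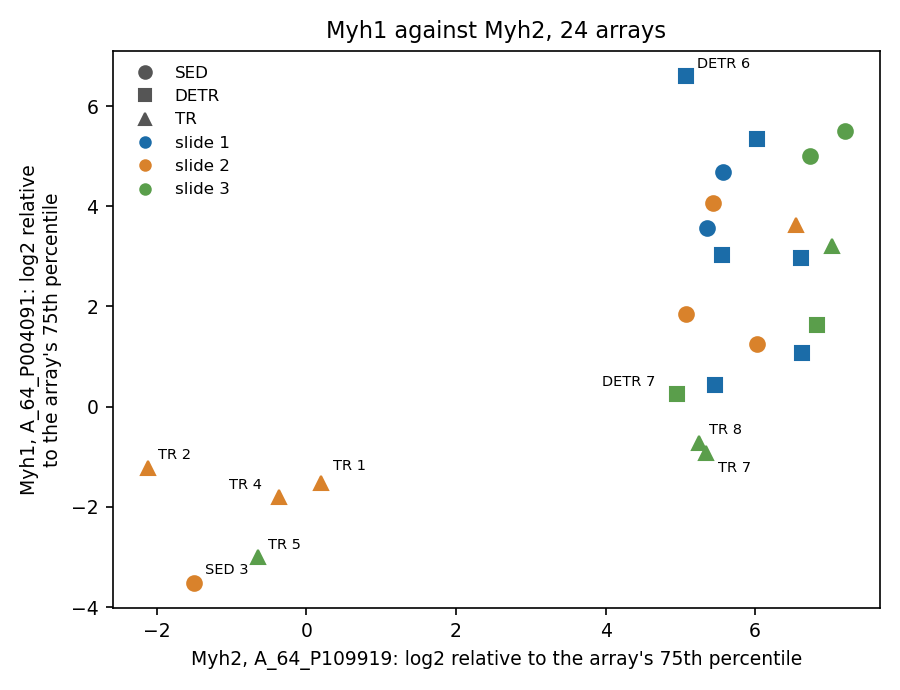
Myh1 level (vertical axis) against Myh2 probe A_64_P109919 (horizontal axis), both log2 relative to the 75th percentile of the array, for 24 arrays, with symbols for groups and colours for slides. SED 3 and TR 1, 2, 4 and 5 are low for both genes, and the other 19 arrays form a column with Myh2 between 4.96 and 7.20 and Myh1 between -0.92 and 6.60.

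Myh4, the type IIb chain, followed Myh2 on a smaller scale. Its lowest, median and highest levels were -4.24, -0.29 and 0.43 in SED, -1.51, -0.12 and 0.78 in DETR and -3.75, -1.67 and 1.09 in TR, with means of -0.66 ± 1.5, -0.18 ± 0.74 and -1.65 ± 1.99 (SD, n = 8). SED 3 was at -4.24 and TR 1, 2, 4 and 5 at -3.56, -2.91, -3.75 and -3.57, while the 19 other arrays were between -1.51 and 1.09. The genes of this family resemble one another over long stretches of coding sequence, and how far the Myh4 probe, or any of the 4, also binds transcripts of the others was not tested here.

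The probes that measured one gene, or the spots of 1 probe, agreed on which rats were low. The 2 spots of A_64_P109919 differed by a median of 0.05 log2 units over the arrays (at most 0.37, on SED 7), those of Myh1 by 0.08 (at most 0.39, on TR 5) and those of Myh4 by 0.19 (at most 1.02, on TR 5). The largest spot differences of Myh4 and Myh1 are not small against the Myh4 step of 1.40 and the 0.30 between the fifth and sixth Myh1 arrays. A_64_P105383 had 1 spot. Between the Myh2 probes the difference, A_64_P109919 minus A_64_P105383, depended on the slide. It was 2.09 ± 0.16 on slide 1 and 2.25 ± 0.23 on slide 2, and 3.74 ± 0.43 on the dim slide 3 (SD, n = 8 arrays each). The values on slide 3, 2.96 to 4.24, lay above all 16 of the others, 1.89 to 2.69, in every group present there. The shift of its median on slide 3 was 1.66, against a median shift of 0.60 for the 2509 genes with 2 probes that were measured, and 13% of those genes had a larger one. Across the 19 upper arrays the Myh2 probes correlated at r = 0.51 (rho = 0.49) over all slides and at 0.96 within slides.

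**Figure D4:**
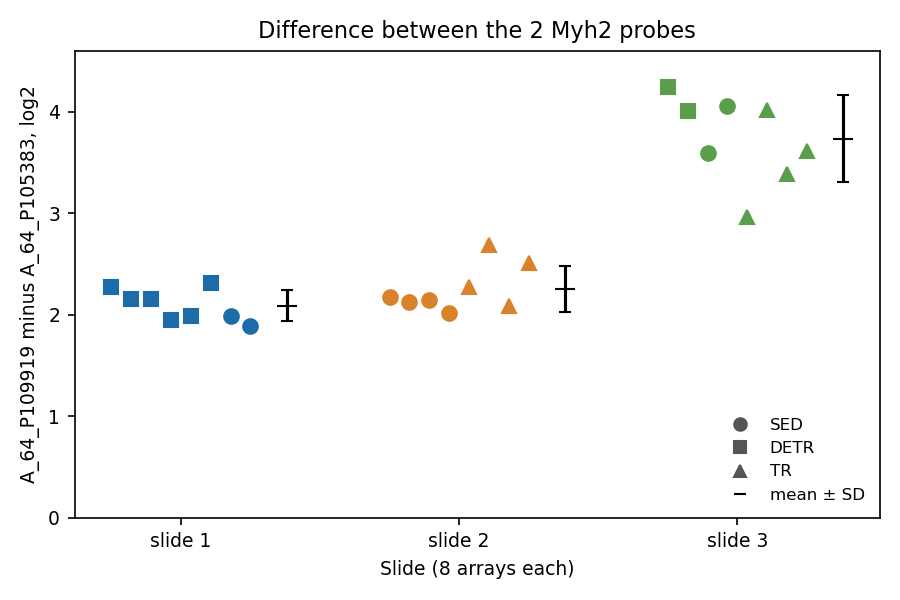
Difference between the 2 Myh2 probes on each array, A_64_P109919 minus A_64_P105383 in log2 units (vertical axis), by slide (8 arrays each), with symbols for groups and the mean ± SD beside each slide. The 8 arrays of slide 3 lie at 2.96 to 4.24, above the 16 arrays of slides 1 and 2 at 1.89 to 2.69.

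All 4 member probes had lower means in TR than in SED, and none of the differences passed the test. In limma, with group and slide as terms, Myh1 differed by -2.71 ± 1.22 log2 units, TR minus SED (SE; 95% interval -5.23 to -0.18; adjusted p = 0.4585). The difference was -2.51 ± 1.22 for A_64_P109919 (interval -5.04 to 0.03; adjusted p = 0.4906), -2.49 ± 1.23 for A_64_P105383 (-5.04 to 0.06; 0.4953) and -0.93 ± 0.73 for Myh4 (-2.44 to 0.59; 0.6603). By size Myh1, A_64_P109919 and A_64_P105383 ranked 1, 2 and 3 of 23425 probes tested, and by p they ranked 1875, 2510 and 2611, with SEs many times the median SE over all probes, 0.168. Over all probes the median difference was 0.01. The adjusted p passed 0.05 for 2 of 23425 probes (0.00854%), no member among them. Without adjustment 10.3% of all probes were under 0.05 in limma. Myh1, at 0.03671, was the 1 member probe of 4 that was, a count too small to set above that background.

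Within slides the exact permutation test gave the same picture. Myh1 was on average 2.93 lower in TR than in SED on slides 2 and 3 (two-sided exact p = 0.0867, of 1050 arrangements, with 0.000952 the smallest possible). The exact p was 0.177 for A_64_P109919, 0.172 for A_64_P105383 and 0.272 for Myh4, and none of the 12 such tests of the members was adjusted. The Myh1 difference was uneven between slides: -1.15 on slide 2 (4 TR and 4 SED, overlapping) and -5.61 on slide 3 (4 TR and 2 SED, not overlapping). With SED 3 left out of the model it was -3.59 (unadjusted p = 0.0037, adjusted p = 0.3007). For A_64_P109919 the TR difference was -2.69 on slide 2 and -2.73 on slide 3. All 157 values of the members under other settings, from -5.61 to -0.27, kept TR below SED, and none was called.

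No member passed the test in DETR against SED either. The limma differences, DETR minus SED, were -1.63 ± 1.41 for Myh1, -0.25 ± 1.41 for A_64_P109919, -0.60 ± 1.42 for A_64_P105383 and -0.13 ± 0.84 for Myh4 (all adjusted p = 0.9997). The 95% interval of A_64_P109919 ran from -3.17 to 2.68, so that a change of several fold in either direction would lie inside it. No probe of 23425 was called (0%), and 4.06% were at an unadjusted p under 0.05, with 0 of 4 members among them. The exact permutation p of the 4 probes was 0.125 for Myh1 and 0.548 to 0.964 for the others (168 arrangements, with 0.00595 the smallest possible). For Myh1 the plain group means, 2.66 in DETR and 2.80 in SED, were nearly equal, the within-slide differences were -0.88 on slide 1 and -4.32 on slide 3 (2 rats against 2, not overlapping), and the model without a slide term gave -0.14. The size of this value therefore depends on the slide term. Both Myh2 probes and Myh4 were higher in DETR than in SED without the slide term, by 0.91, 0.77 and 0.49, and lower with it.

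In TR minus DETR the limma differences were -2.26 ± 1.58 for A_64_P109919 (adjusted p = 0.5992), -1.89 ± 1.59 for A_64_P105383 (0.6581), -1.08 ± 1.57 for Myh1 (0.7985) and -0.80 ± 0.94 for Myh4 (0.7508). No probe of 23425 was called (0%), with 10% at an unadjusted p under 0.05 and 0 of 4 members among them. Without the slide term the differences were larger, -3.24 for A_64_P109919, -3.55 for A_64_P105383, -2.96 for Myh1 and -1.47 for Myh4 (limma unadjusted p = 0.01801, 0.007662, 0.02303 and 0.05003; adjusted p = 0.2607 to 0.392), and none was called. The 2 groups met on slide 3 only, as 4 TR and 2 DETR arrays, where the exact permutation test cannot go below 0.0667 and gave 0.6 to 0.867. Both this comparison and TR minus SED use the same TR arrays, so the low TR rats enter each of them.

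Tnni2, Tnnt3, Tpm1 and Mylpf, genes of the thin filament and of the myosin light chain, recurred among the genes whose brightest probe ran most like the members'. Of 15859 named genes, those closest to Myh2 (A_64_P109919) over 24 arrays were Tnni2, fast troponin I (r = 0.990), Tnnt3, fast troponin T (0.980), the tropomyosin gene Tpm1 (0.965), Mylpf, the fast regulatory light chain that RefSeq now names Myl11 (0.923), and the acyl-CoA synthetase gene Acsl6 (0.797). For Myh4 they were Tpm1 (0.979), Tnnt3 (0.977), Tnni2 (0.963), Mylpf (0.921) and Cdh15, M-cadherin (0.813). For Myh1 they were Atp2a1, the calcium pump SERCA1 (0.828), Mylpf (0.824), Mybpc2, fast myosin binding protein C (0.822), Tpm1 (0.808) and Tnnt3 (0.788). Since the step sets much of these values, the same pairs were taken over the 19 upper arrays. The 5 genes then stood at 0.77 (Tpm1) to 0.94 (Tnni2) with A_64_P109919, at 0.64 (Cdh15) to 0.89 (Tpm1) with Myh4 and at 0.47 (Tnnt3) to 0.73 (Atp2a1) with Myh1. With quantile normalization, and in the authors' deposited table, the 5 genes of Myh1 were the same, Acsl6 left the 5 of Myh2 and Cdh15 those of Myh4. Mybpc2 was well above background on 17 arrays only.

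The same 5 rats were the 5 lowest on 10 of 23425 probes. Besides the 4 member probes they were those of Tnni2, Tnnt3, Tpm1, Mylpf, the Z-disc gene Myoz1 and Ptpn3, a tyrosine phosphatase. Tnni2 was at 0.18 to 1.60 on the 5 arrays and at 5.83 to 8.50 on the 19, and Tnnt3 at -1.35 to 0.34 and at 4.16 to 7.04, steps of 4.23 and 3.82. Tpm1 stepped by 1.73 and Mylpf by 0.56, and the steps of Myoz1 and Ptpn3, 0.05 and 0.01, were close to 0. With normexp background correction 11 probes shared those 5 lowest arrays, the 4 member probes among them and without Mylpf, Myoz1 and Ptpn3. With quantile normalization 15 probes shared those 5 lowest arrays, all 4 member probes among them. The count was 12 in the authors' deposited table, without Myh1.

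The 18 fast fibre partner genes differed among themselves. All 18 were measured. TR minus SED was negative for 13 and positive for 5, with a median of -0.21 against 0.01 over all probes, and 0 were called (4 at an unadjusted p under 0.05, against 10.3% of all probes). Those 4 differed in direction: Myl1 and Casq1 were higher in TR, by 0.41 and 0.25, and Mybpc2 and Pfkm lower, at -2.42 and -0.35. Tnni2 was at -2.19 ± 1.08 (adjusted p = 0.4935), Tnnt3 at -2.01 ± 1.16 (0.5529), Tpm1 at -1.27 ± 0.71 (0.5431), Mylpf at -0.77 ± 0.53 (0.6126) and Mybpc2 at -2.42 ± 0.93 (0.4093). Of the 18, Tnni2, Tnnt3, Tpm1, Mylpf and Myoz1 did not overlap between the 5 arrays and the 19, Myoz1 by a step of 0.05 only. In the remaining genes the 5 arrays overlapped the 19, Mybpc2 included, at -7.73 to -4.03 and -4.70 to 1.15. Myl1, the fast essential light chain, was at 6.28 to 7.42 on the 5 arrays and 5.90 to 7.23 on the 19, with TR minus SED at 0.41 ± 0.08 (unadjusted p = 3.497e-05, adjusted p = 0.1365), opposite in sign to Mylpf. Tnnc2, fast troponin C, was at 6.07 to 7.42 and 7.04 to 8.88, Atp2a1 at 6.04 to 7.18 and 6.22 to 8.17, Casq1, calsequestrin 1, at 6.66 to 7.07 and 6.57 to 7.26, and Pvalb, the calcium buffer parvalbumin, at -3.99 to -1.88 and -3.77 to -0.40. These ranges pool the slides. On slide 2, Atp2a1 was at 6.07 to 7.18 on SED 3 and TR 1, 2 and 4, and at 7.18 to 7.81 on the other arrays. On slide 3, TR 5 was the lowest array for Atp2a1 (6.04) and Tnnc2 (7.42). Tnnc2 overlapped on slide 2 (TR 2 at 7.31, SED 5 at 7.04), as did Myl1, Casq1 and Pvalb. TR minus SED was -0.21 ± 0.25 for Tnnc2 (adjusted p = 0.7852), -0.22 ± 0.29 for Atp2a1 (0.8132), -0.62 ± 0.60 for Actn3 (0.7261) and -0.21 ± 0.41 for Pvalb (0.8752). A second Tpm1 probe, A_44_P134213, dimmer than the one used, had a TR minus SED of -0.06 ± 0.13. It was not among the 10 probes on which the same 5 rats were the 5 lowest.

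**Figure D5:**
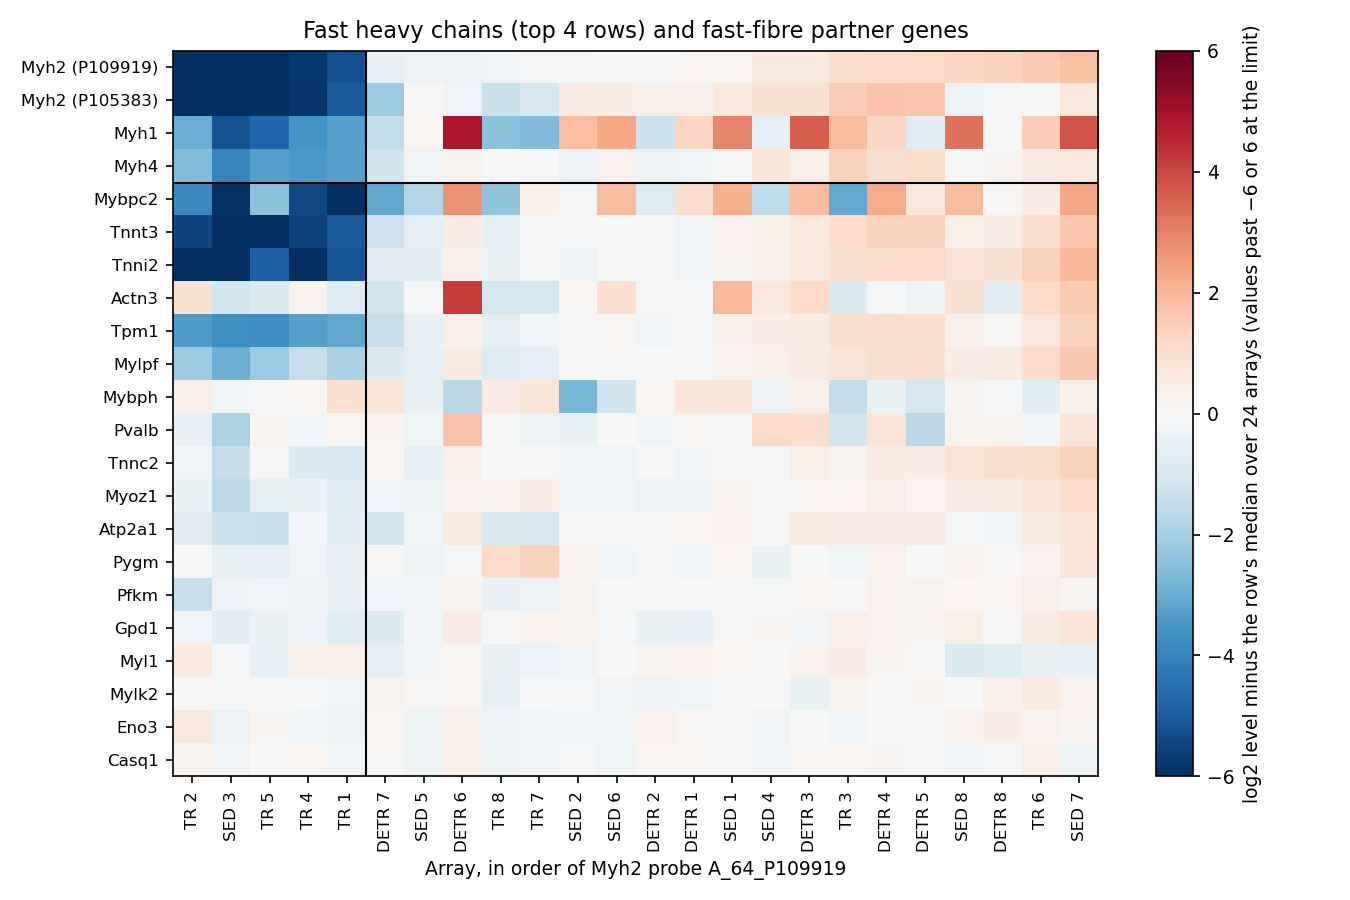
The 4 member probes (top rows) and the 18 fast fibre partner genes on 24 arrays in the order of A_64_P109919, coloured by log2 level minus the row's median over the arrays; the vertical line marks the widest step of A_64_P109919. Tnni2, Tnnt3, Tpm1 and Mylpf are low in the same 5 columns as Myh2 and Myh4. Casq1, Eno3, Mylk2, Pfkm and Myl1 vary little, with SDs of 0.20 to 0.40 over the arrays. Among these, Pfkm correlates with A_64_P109919 at r = 0.75 and the others at -0.35 to 0.21.

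Myh7, the slow chain, was at 7.92 to 10.24 on the 5 arrays and 8.24 to 10.32 on the 19, with TR minus SED at -0.09 ± 0.11 (adjusted p = 0.7858). Tnnc1, slow troponin C, was at 3.35 to 9.58 on the 5 arrays and 8.12 to 9.62 on the 19, pooled over the slides as for Myh7. Its TR minus SED was -0.7 ± 0.49 (limma adjusted p = 0.6116). Of 13 slow fibre genes TR minus SED was positive for 7 and negative for 6 (median 0.11), with 0 called and 3 at an unadjusted p under 0.05, against 10.3% of all probes. Those 3 were all higher in TR: Myl2, the slow regulatory light chain, by 0.29, slow troponin I (Tnni1) by 0.35 and the tropomyosin gene Tpm3 by 0.28. Of 28 regulators of fibre type and myosin assembly 25 were measured, 8 higher and 17 lower in TR than in SED (median -0.13), with 0 called. Without adjustment 1 of the 25 was under 0.05, the myogenic transcription factor gene Myod1, at -0.95 ± 0.29 (adjusted p = 0.3066). In 0 of the 25 were the 5 arrays set apart from the 19. Sox6, which is known to repress slow genes in fast fibres, had the highest correlation of the 25 with A_64_P109919 (r = 0.68 over 24 arrays). It was at -4.49 to -4.12 on the 5 arrays and -4.18 to -3.14 on the 19, and was well above background on 21 arrays. Its TR minus SED was -0.13 ± 0.14 (limma adjusted p = 0.7674).

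Among the other sarcomeric heavy chains the embryonic Myh3, the protein-coding gene next to Myh2, held 1 of the 2 probes called in TR minus SED. Its probe A_64_P031995 was at 2.59 to 3.74 in SED, 3.53 to 4.38 in DETR and 3.98 to 5.20 in TR, so that no TR rat overlapped a SED rat, and it rose by 1.36 ± 0.16 (limma adjusted p = 0.0005229). The TR rats low for Myh2, TR 1, 2, 4 and 5, were at 4.57, 5.20, 4.88 and 4.93 on it, and those high for Myh2, TR 3, 6, 7 and 8, at 3.98, 5.00, 5.17 and 4.91. The brighter Myh3 probe, A_44_P271442, was at 0.67 ± 0.39 (adjusted p = 0.5529) in the same comparison, with TR 2 at 2.11 and the other 7 TR rats at 5.19 to 5.91. Myh8, the neonatal chain next to Myh4, was at 7.04 to 9.32 on the 5 arrays and 7.41 to 9.62 on the 19 (TR minus SED -0.11 ± 0.20, adjusted p = 0.8745). Of 7 such genes 5 were higher and 2 lower in TR than in SED, and of 4 non-muscle and smooth muscle heavy chains 3 were higher and 1 lower, with 0 of their brightest probes called.

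Markers of other cells that a piece of mid-belly could hold were read on the same arrays. The mean level of 10 tendon genes was -2.36 to 0.26 on the 5 arrays and -2.07 to 0.93 on the 19, that of 7 measured of 8 adipocyte genes -2.22 to -1.41 and -3.22 to -1.30, and that of 8 macrophage genes -1.20 to -0.71 and -1.72 to -0.25. For these lists, and for the endothelial, smooth muscle, Schwann cell and spindle fibre markers, the 5 arrays overlapped the 19. Between groups, 7 of 7 adipocyte genes and 6 of 8 macrophage genes were higher in TR than in SED (medians 0.66 and 0.34), against 52.9% of all probes, and 9 of 10 tendon genes were lower (-0.87). None was called. Without adjustment 4 of 7 adipocyte, 4 of 8 macrophage and 0 of 10 tendon genes were under 0.05 in limma, against 10.3% of all probes; their part in the TR values of the fast chains was not tested.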

How the data were processed

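Cy3-labelled total RNA of 24 soleus samples was hybridised to one-colour Agilent arrays, each rat having 1, per the labels. The deposited scanner files hold spot intensity values, corrected for background and spatial trends within each array by Agilent Feature Extraction (11.5.1.1 per the file headers, 11.5.11.1 per the submitters' processing notes). In the authors' own deposited table, log2 values share 1 distribution over all columns and are read as quantile normalized, by a tool not given in the sources used here. The log2 processed signal minus each array's 75th percentile over non-control spots was used here. Spots flagged as outliers were left out and spots of a probe averaged. A probe was kept if well above background on 8 arrays or more. The 23425 kept of 30367 were fitted in limma 3.58.1 (R 4.3.3) on all arrays, with group and slide as terms and 1 row per probe. P-values were adjusted by Benjamini-Hochberg, with a threshold of 0.05. The fit was tested on data simulated with normal noise, which did not hold a step like that of Myh2 and so did not cover that case. The number of arrays limits the precision, and each p-value sets a difference against the spread between rats, array noise included. Exact permutations moved arrays between groups within a slide. A gene with several probes was represented by its brightest, and genes took RefSeq names by accession where they matched. Per member, the 5 genes most like it by Pearson r were named, a fixed set of list genes was given with values, and the members and lists were chosen with earlier results of these data known. The promoters are from RefSeq; probe letters and proteins were not used here. A called probe of a gene outside the members and lists is not reported here.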

Additional observations from a re-analysis of the deposited data

Results flagged for a closer look

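Within groups of 8, 16 features (the 4 member probes and 12 named genes) were examined for an array standing far from the rest, which makes 48 groups, of which 10 held one. Chance flags about 1 in 20 such groups, and the features are not independent. SED 3 accounted for 7 of the 10, always as the lowest SED rat: Myh1 at -3.51 (next 1.25), A_64_P105383 at -3.67 (next 2.68), A_64_P109919 at -1.50 (next 5.08), Myh4 at -4.24 (next -0.66), Tnni2 at 0.18 (next 5.90), Tnnt3 at -1.27 (next 4.85) and Atp2a1 at 6.07 (next 7.18). The low TR rats were not singled out in this way, since 4 of 8 lay together. DETR 6 was the highest DETR rat for Actn3 at 3.65 (next 0.63), and DETR 7 the lowest for Atp2a1 at 6.22 (next 7.15). TR 2, the noisiest array, was the lowest TR rat for Myh3 probe A_44_P271442 at 2.11 (next 5.19).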

How the results depend on the processing

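Of 467 values of the member probes under other settings, 449 kept their sign, 18 reversed and 0 passed the threshold; all 157 of TR minus SED kept theirs. The reversals of DETR minus SED, for A_64_P109919, A_64_P105383 and Myh4 in that order, were 0.91, 0.77 and 0.49 with no slide term, 0.63, 0.35 and 0.39 with slide and array row, and 0.43, 0.23 and 0.51 on slide 1 alone and without slide 3, the last an alternative chosen after seeing the data. With array weights A_64_P109919 was at 0.03 and Myh4 at 0.08. Nothing in the labels says that the replicate numbers pair rats. After group and slide were fitted, same-number correlations were -0.37 to 0.269 (over 0.1 in 1, 0 and 0 of 8 pairs for DETR minus SED, TR minus SED and TR minus DETR). The numbers partly follow the slides, so these correlations cannot decide whether rats were paired. With the replicate block TR minus DETR was 0.14 for Myh1 and 0.37 for Myh4, TR minus SED was -1.52 for A_64_P109919, and 6 probes were called in TR minus SED and 34 in TR minus DETR. The cause of these changes was not tested.

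With single arrays left out, DETR minus SED ran from -2.09 to -1.21 for Myh1, -0.55 to 0.24 for A_64_P109919, -0.91 to -0.03 for A_64_P105383 and -0.41 to 0.26 for Myh4, each upper end of the last 3 without DETR 7. Counts of called probes ran from 1 to 4 in TR minus SED (main 2) and from 0 to 9 in TR minus DETR (main 0), the highest without TR 6, with 4 in TR minus SED also without SED 3, and 2 in TR minus DETR without SED 3 or TR 2. The TR minus SED count was 1 with slide left out or as a random block, with no filter or the strictest one (well above background on every array), a trended robust prior, only the groups compared, without slide 3 and at a threshold of 0.01, 0 with one probe per gene and on slides 2 or 3 alone, 8 with slide and array row and 103 with array weights. Array weights also called 18 probes in DETR minus SED and 2 in TR minus DETR, and only the groups compared 1 in TR minus DETR. The dim signal of slide 3, where TR 5 had 2 member probes not well above background, limits the lowest values.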
